A study of Drosophila melanogaster with 6 samples.

Results

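BEAF-32 (boundary element-associated factor) is an insulator protein of Drosophila, and its widest binding regions in the larval wing were described here. The members were chosen by their measured width, as all peaks of the deposited list whose end minus start was above 1000 bp. They numbered 378 of 2609 peaks, or 14.5% (Wilson 95% interval 13.2 to 15.9%), and the other 2231 peaks of 1000 bp or less served as the comparison. Their widths are therefore given as a description only.

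The peaks came from chromatin immunoprecipitation followed by sequencing (ChIP-seq) of wing imaginal discs, the larval epithelial sacs that give rise to the adult wing and adjacent body wall. The discs were from third-instar larvae of a wild-type strain written Orgon R in the labels, with no transgene, mutation or treatment named. An antibody against the isoform BEAF-32B was used for 4 ChIP libraries, and 2 libraries held input chromatin. The deposited list gives 1 set of intervals for the whole series, with no value per library and no score, so depth is unknown and neither replicate spread nor input background could be attached to a peak.

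BEAF-32 binds DNA in Drosophila through short CGATA sequences that often occur in clusters, and its known sites include the scs' boundary of the heat-shock gene locus. It is known for lying near the start sites of active, often housekeeping, genes and at borders between chromatin domains. A ChIP-seq peak is the stretch over which sequenced fragments pile up, so a width can cover a single site, several neighbouring sites, or a stretch set by the peak caller. Which of these holds for the wide peaks cannot be told apart with intervals alone, and the deposited list carries no sequence.

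The wide peaks formed the upper tail of a continuous distribution, with no gap at the limit. Their widths ran from 1001 to 2442 bp around a median of 1183 bp, and the middle 50% lay between 1076 and 1371 bp. The narrower peaks ran from 279 to 1000 bp around a median of 615 bp. The wide class held 122 peaks of up to 1100 bp, 82 of 1101 to 1200 bp, 118 of 1201 to 1500 bp, 43 of 1501 to 2000 bp and 13 above 2000 bp. Together the wide peaks covered 481 kb of the 1875 kb under all peaks, which is 25.7% of the covered length from 14.5% of the peaks.

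The limit of 1000 bp divides peaks of nearly equal width. The members just inside it were chrX:7813785-7814785 (1001 bp), chr3L:5745669-5746670 (1002 bp), chr3R:21160318-21161321 (1004 bp), chr3R:22055195-22056199 (1005 bp) and a peak of 1006 bp at chr2L:276727-277732. Just outside lay chr2L:20428770-20429769 (1000 bp), chr3L:7151021-7152018 (998 bp), chr2R:18303248-18304243 (996 bp), and peaks of 993 bp at chr3R:19598883-19599875 and chr2R:8823648-8824640. Within 50 bp of the limit there were 59 peaks above it and 66 at or below it.

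**Figure D1:**
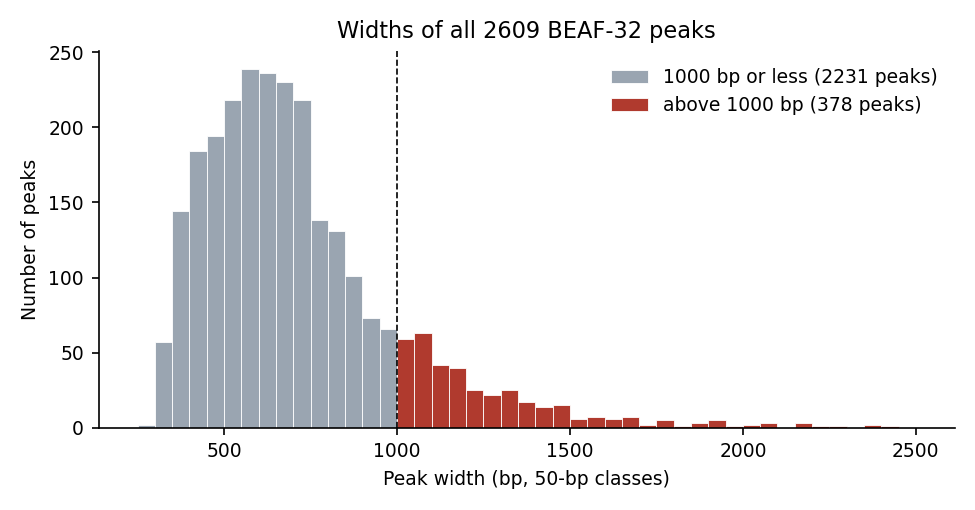
Number of BEAF-32 peaks in 50-bp classes of width, with the 2231 peaks of 1000 bp or less in grey and the 378 wide peaks in red. The counts show no break at the dashed line at 1000 bp, with 122 peaks from 1001 to 1100 bp and 13 above 2000 bp.

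Wide peaks occurred on each of the 5 large arms, at similar shares. They made up 16.5% of the peaks of 3R (100 of 607, Wilson 95% interval 13.7 to 19.6%), 15.4% of 2R (77 of 499, 12.5 to 18.9%) and 15.3% of 3L (77 of 504, 12.4 to 18.7%). On 2L the share was 13.3% (51 of 383, 10.3 to 17.1%), and on X it was 12.5% (72 of 577, 10.0 to 15.4%). These intervals overlapped for all 5 arms. X minus the other 4 large arms gave -2.83 percentage points (Newcombe 95% interval -5.78 to 0.49), an interval that includes 0.

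Per length, 2L had the fewest wide peaks, at 2.23 per Mb (exact Poisson 95% interval 1.66 to 2.93), with arm length taken from coordinate 0 to the last peak. The densities were 3.67 per Mb on 2R (2.90 to 4.59), 3.60 on 3R (2.93 to 4.37), 3.31 on 3L (2.61 to 4.14) and 3.24 on X (2.54 to 4.08). Narrower peaks were also fewest per length on 2L among these arms, at 14.5 per Mb. X had the most narrower peaks per length, at 22.7 per Mb, yet its wide peaks were no denser than those of 2R, 3R or 3L within these intervals. The median width of the wide peaks lay between 1161.5 bp (3R) and 1195 bp (2L) on all 5 arms.

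Outside the large arms, wide peaks were rare in number. All 5 peaks of chromosome 4, the small and largely heterochromatic chromosome, were narrower than the limit. With so few peaks the Wilson 95% interval of its wide share was 0 to 43.4%, which includes the overall share. Of 34 peaks on unplaced or heterochromatic sequences, 1 was wide (2.94%, Wilson 95% interval 0.52 to 14.9%), at chrUextra:3141981-3143145 with 1165 bp. The neighbour comparisons below use the 377 wide and 2193 narrower peaks of the 5 large arms.

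The first question on placement was how near wide peaks lay to other peaks, measured as the gap between edges. For a given distance between midpoints, a wider peak has a shorter gap. The nearest other peak lay at a median gap of 3.70 kb from a wide peak (quartiles 0.99 and 12.5 kb) and of 6.05 kb from a narrower one (1.40 and 20.1 kb). Over all peaks the median gap was 5.70 kb. Of the wide peaks, 206 of 377 had another peak within 5 kb, or 54.6% (Wilson 95% interval 49.6 to 59.6%). Of the narrower peaks, 1006 of 2193 did, or 45.9% (43.8 to 48.0%), and of all peaks 47.2%. The difference was 8.77 percentage points, with a Newcombe 95% interval of 3.31 to 14.1. With distances taken between midpoints it was 9.39 points (3.94 to 14.8).

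Peaks of 1 list are not replicates, and 2 close neighbours count for each other, so these intervals cover counting error only and are likely too narrow. No test was made of any difference between wide and narrower peaks. The positions were not used in choosing the members, but a caller that joins adjacent sites would widen peaks where sites are close. The part of such joining in these gaps was not tested.

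The difference was small at the shortest gaps, larger up to 20 kb and smaller again beyond. Within 500 bp of another peak lay 16.4% of the wide and 15.2% of the narrower peaks, a difference of 1.22 percentage points (-2.53 to 5.54) whose interval includes 0. Within 2 kb the shares were 37.4% and 29.7% (difference 7.67 points, 2.55 to 13.0). Within 10 kb they were 70.0% and 60.4% (9.61 points, 4.39 to 14.5). Isolated peaks were counted next. Wide peaks with no other peak within 20 kb numbered 58 (15.4%), against 549 of the narrower peaks (25.03%), a difference of -9.65 points (-13.4 to -5.29). Beyond 50 kb stood 14 wide peaks (3.71%) and 212 narrower ones (9.67%). Within 100 kb of another peak lay 98.7% of the wide and 96.9% of the narrower peaks, a difference of 1.73 points (-0.13 to 2.84) whose interval includes 0.

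The gap to the nearest peak was shorter in wider classes on both sides of 1000 bp, except for near-equal values next to the limit. Its median was 8.17 kb for the 567 peaks of up to 500 bp, 6.23 kb for 501 to 600 bp, 5.73 kb for 601 to 700 bp, 4.90 kb for 701 to 850 bp and 4.78 kb for 851 to 1000 bp. The members continued the series with 4.80 kb at 1001 to 1200 bp (203 peaks), 3.51 kb at 1201 to 1500 bp (118 peaks) and 2.14 kb above 1500 bp (56 peaks). Peaks of 851 to 1000 bp and of 1001 to 1200 bp thus had almost the same median gap, and the limit itself marks no step. The share with no peak within 20 kb went from 31.6% in the narrowest class to 19.2% at 1001 to 1200 bp, 12.7% at 1201 to 1500 bp and 7.14% above 1500 bp. Across all 2570 peaks the rank correlation of width with gap was weak (Spearman's rho -0.11, Pearson's r of the log10 values -0.11), and among the 377 wide peaks it was -0.12 (Pearson's r -0.13).

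**Figure D2:**
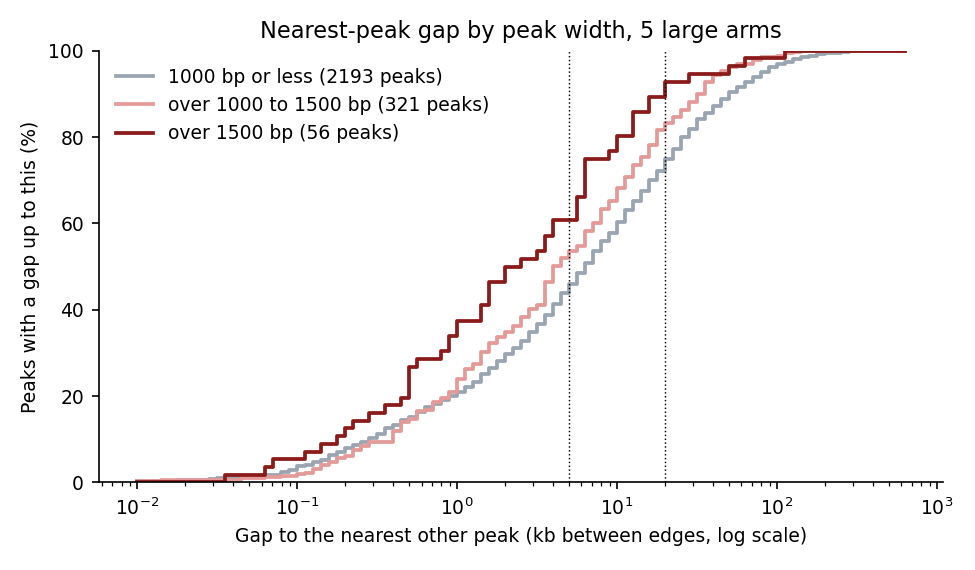
Percentage of peaks (y axis) whose gap to the nearest other peak is at or below the value on the logarithmic x axis (kb between edges), for 2193 peaks of 1000 bp or less (grey), 321 of 1001 to 1500 bp (light red) and 56 above 1500 bp (dark red). Dotted lines mark 5 and 20 kb, and the curve of the widest peaks lies highest at both, with 60.7% within 5 kb.

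The same shares were taken arm by arm. On 2L, 29 of 51 wide peaks (56.9%) and 116 of 332 narrower peaks (34.9%) had another within 5 kb, a difference of 21.9 points (Newcombe 95% interval 7.34 to 35.5). On 2R the shares were 58.4% and 47.6% (10.8 points, -1.32 to 22.2), and on 3L 54.5% and 44.7% (9.81 points, -2.23 to 21.4). On 3R they were 48.0% and 42.8% (5.20 points, -5.28 to 15.8), and on X 58.3% and 55.6% (2.69 points, -9.60 to 14.2). The wide peaks had the higher share on 5 of 5 arms, but only the interval of 2L excluded 0, and the intervals of all 5 arms overlapped. For another peak within 20 kb the difference was 19.1 points on 2L (5.5 to 28.8) and 17.9 on 3L (8.26 to 24.7). It was 8.06 points on 3R (-1.06 to 15.1), 5.32 on X (-4.75 to 12.1) and 1.50 on 2R (-9.49 to 10.2), with intervals that include 0. The lower share of isolated peaks in the wide class was thus clear only on 2L and 3L.

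Seen from the other side, the share of wide peaks was lowest among isolated peaks. It was 6.19% (14 of 226, Wilson 95% interval 3.73 to 10.1%) among peaks whose nearest neighbour was over 50 kb away and 11.5% (44 of 381, 8.72 to 15.1%) at 20 to 50 kb. At gaps of 2 to 20 kb it lay between 14.7% and 15.5%, and at 1 to 2 kb it was 18.1% (43 of 238). The highest share was 22.6% (36 of 159, 16.8 to 29.7%), at gaps of 0.5 to 1 kb. Among peaks within 0.5 kb of another it was 15.7% (62 of 396, 12.4 to 19.6%), close to the overall share of 14.7%.

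Close neighbours were present on both sides of 61 wide peaks (16.2%) and of 251 narrower peaks (11.4%), counted within 5 kb. A neighbour on 1 side only was found for 145 wide peaks (38.5%) and 755 narrower ones (34.4%). The remaining 171 wide peaks (45.4%) had none within 5 kb, so standing alone was still common in the wide class.

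Runs of peaks were formed by linking neighbours at gaps of up to 5 kb. The share of wide peaks was 12.6% among the 1358 peaks standing alone (Wilson 95% interval 10.9 to 14.5%), 14.4% in the 291 runs of 2 peaks (11.8 to 17.5%), 15.2% in the 88 runs of 3 (11.3 to 19.97%) and 22.4% in the 71 runs of 4 or more (82 of 366 peaks, 18.4 to 27.0%). Runs of 4 or more thus contained 21.8% of the wide peaks and 13.0% of the narrower ones. Within runs of 3 or more, wide peaks made up 19.2% of the peaks at the ends (61 of 318) and 19.6% of those in the interior (61 of 312), so the share was almost the same at both places.

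**Figure D3:**
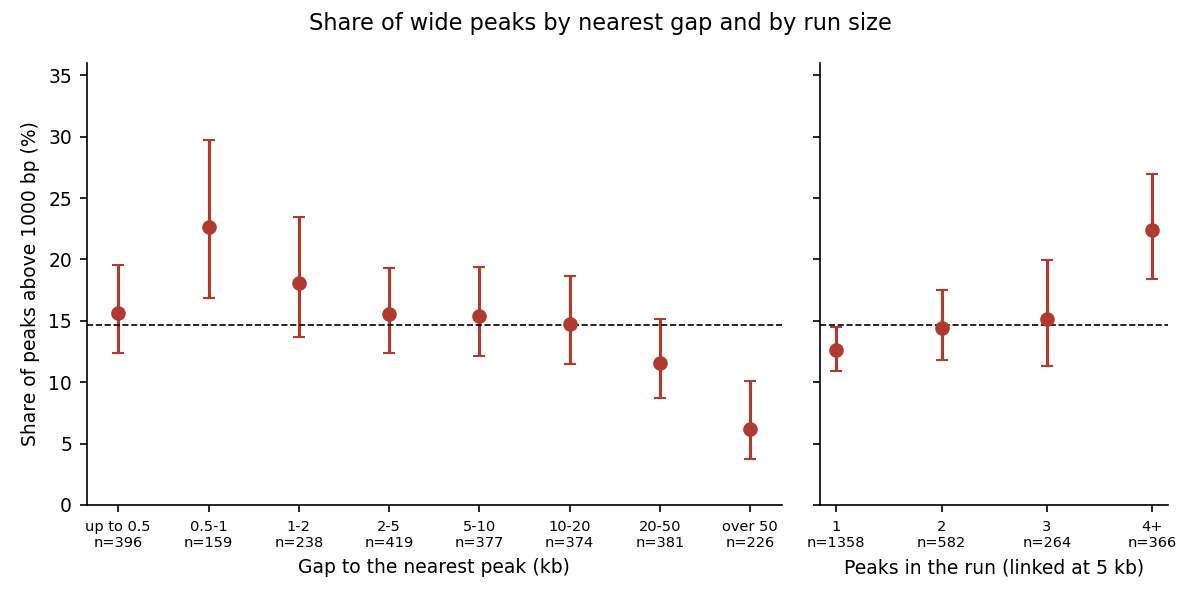
Share of peaks wider than 1000 bp (y axis, percent, with Wilson 95% intervals) by the gap to the nearest peak (left) and by the number of peaks in the run (right, linked at up to 5 kb), on the 5 large arms. The share was 6.19% beyond 50 kb and 22.4% in runs of 4 or more, against 14.7% overall (dashed line).

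The second question was whether wide peaks lay near each other. The peak nearest to a wide peak was itself wide in 90 of 377 cases, or 23.9% (Wilson 95% interval 19.8 to 28.4%). For narrower peaks this was so in 292 of 2193 cases, or 13.3% (12.0 to 14.8%), a difference of 10.6 percentage points (Newcombe 95% interval 6.27 to 15.3). Where the nearest peak lay within 5 kb, it was wide for 27.2% of wide (21.6 to 33.6%) and 14.2% of narrower peaks (12.2 to 16.5%). Where it lay farther away, the shares were 19.9% (14.6 to 26.5%) and 12.6% (10.8 to 14.6%). The intervals of near and far overlapped in both classes. The median width of the nearest peak was 714 bp for wide and 653 bp for narrower peaks.

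The values for single arms covered a wide range, and the differences between arms were not tested. On 3L the nearest peak was wide for 26 of 77 wide peaks (33.8%) and for 12.6% of the narrower ones, a difference of 21.1 points (10.9 to 32.6). On 2L the shares were 29.4% and 12.3% (17.1 points, 5.64 to 31.0), and on 2R 26.0% and 14.0% (12.0 points, 2.76 to 23.2). On 3R the nearest peak was wide for 20 of 100 wide peaks and 15.4% of the narrower ones (4.62 points, -2.87 to 14.0), and on X for 12.5% and 11.9% (0.62 points, -5.95 to 10.5). The intervals of 3L, 2L and 2R excluded 0 and those of 3R and X did not. The interval of 3L (from 10.9) and that of X (to 10.5) did not overlap. Without 2L and 3L together the difference over the remaining arms was 5.94 points (1.10 to 11.6). That alternative was chosen after the values per arm were seen.

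Measured directly, another wide peak lay within 5 kb of 74 wide peaks (19.6%) and of 236 narrower peaks (10.8%), a difference of 8.87 points (4.93 to 13.3). A narrower peak lay within 5 kb of 172 wide peaks (45.6%) and of 908 narrower peaks (41.4%), a difference of 4.22 points (-1.16 to 9.66) whose interval includes 0. The nearest wide peak was at a median of 34.3 kb from a wide peak and 88.1 kb from a narrower one. The nearest narrower peak was at 5.72 kb from a wide peak and 7.43 kb from a narrower one. On 3L another wide peak lay within 5 kb of 24 of 77 wide peaks (31.2%) and of 9.60% of the narrower ones (21.6 points, 11.8 to 32.9). On X the order was the opposite, with 6 of 72 wide peaks (8.33%) and 12.1% of the narrower ones, but the interval of that difference includes 0 (-3.75 points, -9.19 to 5.30). At 10 and 20 kb the differences were -0.56 and -1.33 points on X and -0.54 and -0.40 points on 3R, with intervals that include 0. At 5 kb they were 16.5 points on 2L, 9.52 on 2R and 3.94 on 3R.

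Pairs of neighbouring peaks were also counted by gap. Of 762 neighbouring pairs at up to 5 kb, 35 (4.59%) joined 2 wide peaks, of 663 pairs at 5 to 20 kb 22 (3.32%) did, and of 1140 pairs beyond 20 kb 18 (1.58%) did. The closest wide pairs were chr2L:479229-480528 (1300 bp) with chr2L:480667-481824 (1158 bp), 138 bp apart, and chrX:9578045-9579312 (1268 bp) with chrX:9579493-9581017 (1525 bp), 180 bp apart. They were followed by chrX:15705332-15706635 with chrX:15706878-15708159 (242 bp apart), chr3L:646748-647964 with chr3L:648334-649704 (369 bp) and chr3R:10564799-10565947 with chr3R:10566332-10567418 (384 bp).

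Of the 450 runs of 2 or more peaks, 296 held no wide peak, 117 held 1, 27 held 2 and 10 held 3 to 5. The run richest in wide peaks was chr3L:627734-640961, with 5 wide among 8 peaks in 13.2 kb. Its peaks measured, in order along the arm, 1187, 699, 875, 889, 1492, 1304, 1193 and 1853 bp, so the last 4 were all wide. The next run began 5786 bp further on, at chr3L:646748-654208, with widths of 1217, 1371, 1096, 724 and 629 bp. The 2 runs together placed 8 wide peaks within 26.5 kb near the telomere end of 3L.

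A second group on 3L, chr3L:9366641-9381308, held 4 wide peaks of 7 (1362, 1388, 921, 746, 1486, 1346 and 598 bp). On 3R the run chr3R:12060058-12081367 held 4 wide peaks of 8, none above 1281 bp. On 2R the run chr2R:17030662-17048335 held 4 of 6, from 1022 bp to 2370 bp, the third widest peak of the list. Outside 3L, the runs with 3 wide peaks were chr2R:2539378-2554859 (of 5 peaks, the widest 2022 bp), chr2R:8472473-8481346 (of 5), chr2R:14028935-14039652 (of 4) and chr2L:12006511-12012854, in which all 3 peaks were wide (1317, 1195 and 1082 bp). On 3L, chr3L:646748-654208 and chr3L:8668378-8698806 also held 3. No run on X held 3.

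A long run was not necessarily rich in wide peaks. The run with most peaks, chr3L:8668378-8698806, held 3 wide peaks of 13, with widths of 1326, 1073 and 1036 bp. The run chr3R:7035800-7063246 had 11 peaks of 548 to 960 bp and no wide one, and chrX:6754148-6770458 had 9 peaks of 414 to 980 bp and no wide one. The run chr3R:4627117-4649944, also of 11 peaks, opened with a peak of 1474 bp and held 1 other wide peak, of 1024 bp, among peaks as narrow as 332 bp.

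The 10 widest peaks showed both settings. The widest, chr2L:852043-854484 (2442 bp), lay 468 bp from a wide peak of 1694 bp in a run of 4. The next, chr3R:19880929-19883318 (2390 bp), stood in the middle of a run of 3, at 467 bp from a peak of 698 bp. The peak chr2R:17030662-17033031 (2370 bp) lay 991 bp from another wide peak, of 1111 bp.

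Among the others, chr2L:5981359-5983620 (2262 bp) lay 108 bp from a peak of 958 bp, and 52.4 kb from the nearest wide peak. The peak chrX:15640583-15642741 (2159 bp) lay between 2 neighbours at 127 and 265 bp. The peak chr2L:12433632-12435823 (2192 bp) lay 458 bp from a peak of 334 bp and 421 kb from the nearest wide peak, and chr3R:9207665-9209753 (2089 bp) lay 2.37 kb from a peak of 452 bp. In all, 7 of the 10 had a neighbour within 5 kb, against 54.6% of all wide peaks and 60.7% of those above 1500 bp.

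The 3 that stood alone were chr2R:10657895-10660135 (2241 bp, nearest peak at 17.9 kb), chr3R:21880317-21882408 (2092 bp, 12.4 kb) and chr2R:8803127-8805300 (2174 bp, 6.08 kb). The last of these had 51 narrower peaks within 500 kb, the most of the 10, and the second of them had 14, the fewest. A close neighbour was therefore not a feature of every very wide peak.

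The 5 wide peaks farthest from any other peak were also listed. They were chrX:3055819-3056867 (1049 bp, nearest peak at 126 kb), chr3R:46208-47226 (1019 bp, 112 kb, the outermost peak of that end of 3R), chr2R:3164665-3166191 (1527 bp, 108 kb), chr3R:2316344-2317435 (1092 bp, 107 kb) and chr2L:14617169-14618215 (1047 bp, 105 kb). Of these 5, only the 2R peak was above 1100 bp, and of all wide peaks 32.3% were of up to 1100 bp.

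The third question concerned dense and sparse regions. In 114 full windows of 1 Mb the wide peaks numbered 3.23 ± 2.75 (SD) and the narrower peaks 18.9 ± 8.52 per window, with variances 2.35 and 3.85 times the mean. Because the means differ so much, these 2 multiples do not rank the classes by how evenly they were spread. Wide and narrower counts went together over the windows (Pearson's r 0.54, Spearman's rho 0.54, as a description, since windows share arms and neighbours). The 28 windows with most narrower peaks, 24 or more each, held 154 of 368 wide peaks (41.8%) and 836 of 2149 narrower peaks (38.9%), a difference of 2.95 points (Newcombe 95% interval -2.41 to 8.44). The 29 windows with fewest, 12 or fewer each, held 41 wide peaks (11.1%) and 247 narrower ones (11.5%), a difference of -0.35 points (-3.51 to 3.49). Both intervals include 0 under this ranking, but for dense regions the value depended on the ranking.

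Expressed as a share of the peaks of each region, wide peaks were 15.6% in the dense windows (154 of 990, Wilson 95% interval 13.4 to 17.9%), 14.0% in the middle ones (173 of 1239, 12.1 to 16.0%) and 14.2% in the sparse ones (41 of 288, 10.7 to 18.7%). Windows ranked by narrower peaks favour narrower peaks in the dense class, since each peak counts towards its own window. With the windows ranked by all peaks, the densest held 45.9% of the wide and 38.6% of the narrower peaks (7.35 points, 1.91 to 12.8). A ranking that leaves each peak out of its own count, chosen after seeing the data, used the other narrower peaks with midpoints within 500 kb of that of each peak. Where these numbered 28 to 54, the share of wide peaks was 19.1% (105 of 549, 16.1 to 22.6%), and the difference in share of wide and narrower peaks found there was 7.61 points (2.98 to 12.6). Where they numbered 2 to 15, 16 to 21 or 22 to 27 the share of wide peaks was 13.1%, 12.9% and 14.4%. The median count was 22 around wide and 21 around narrower peaks.

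Neighbours were also counted around each peak by the distance between midpoints. Within 10 kb of a wide peak there were on average 0.38 other wide peaks, against 0.21 around a narrower peak, a ratio of 1.85. The median was 0 for both classes, and 73.5% of wide and 83.7% of narrower peaks had no other wide peak there. The ratio of the means was 1.66 within 50 kb, 1.28 within 250 kb and 1.16 within 500 kb. For narrower peaks around a wide peak the ratios were 1.202, 1.19, 1.08 and 1.06 at the same distances. At each distance the ratio for wide neighbours was the larger of the 2, and both were nearest to 1 at 500 kb. The means pool the large arms and have no interval, and the part of single loci in them was not tested. By arm, the share with another wide peak within 10 kb between edges was compared, wide minus narrower. The difference was 24.2 points on 2L, 17.1 on 2R and 24.9 on 3L, but -0.54 on 3R and -0.56 on X.

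**Figure D4:**
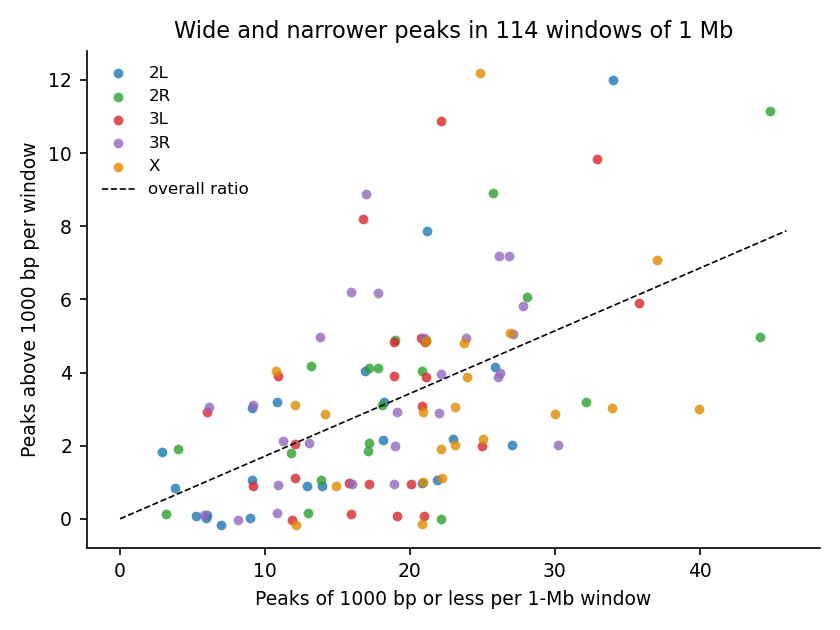
Peaks above 1000 bp (y axis) against peaks of 1000 bp or less (x axis) in 114 full windows of 1 Mb on the 5 large arms, each point 1 window coloured by arm and shifted slightly at random so that equal counts can be seen. The dashed line is the overall ratio, 17 windows lie at 0 wide peaks, and the highest count of wide peaks was 12.

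Single windows departed from this common course in both directions. The windows with most wide peaks were chr2L:1-1000000 (12 of 46 peaks), chrX:15000001-16000000 (12 of 37), chr2R:8000001-9000000 (11 of 56), chr3L:1-1000000 (11 of 33) and chr3L:8000001-9000000 (10 of 43). In 2 of them, the first window of 3L and the X window, wide peaks were 33.3% and 32.4% of the peaks. In contrast, chrX:8000001-9000000 had 40 narrower peaks and 3 wide ones (6.98%), and chr2R:9000001-10000000 had 44 and 5 (10.2%). No wide peak lay in 17 windows, among them chr2R:7000001-8000000 with 22 narrower peaks, and chrX:14000001-15000000 and chr3L:11000001-12000000 with 21 each. The X window with 12 wide peaks is the direct neighbour of one with none.

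Stretches between neighbouring wide peaks varied widely in length, from 0.138 kb upwards, and 75 of them held no other peak. Their median was 139 kb over 372 stretches, with quartiles of 23.5 and 389 kb. The longest was chr3L:13496693-16776292, 3279.6 kb with 51 narrower peaks inside. On 2L it was chr2L:2760892-5981358 (3220.5 kb, 29 narrower peaks), on X chrX:3056868-5611232 (2554 kb, 40), on 2R chr2R:6457082-8213151 (1756 kb, 33) and on 3R chr3R:17416289-18876632 (1460.3 kb, 28). The median stretch was shortest on 3L, at 48.5 kb, against 135 to 218 kb on the other arms, although 3L also had the longest single stretch.

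Along the arms, each divided into 5 equal parts from the telomere to the centromere end, the share of wide peaks was 18.6% in the part at the telomere (96 of 515, Wilson 95% interval 15.5 to 22.2%). It was 14.3%, 14.3% and 11.0% in the next 3 parts and 14.9% (74 of 495, 12.1 to 18.4%) at the centromere end. The intervals of the telomere part and the part before the centromere end (8.51 to 14.0%) did not overlap. These parts had the highest and lowest of the 5 shares, so the pair was picked by its values. By arm, the shares in these parts were 23.1% and 3.53% on 3L, 20.2% and 10.0% on 2L, and 20.2% and 9.09% on 2R. They were 16.0% and 14.8% on 3R, and on X the order was the opposite (10.8% and 13.8%). Only on 3L did the intervals of these parts not overlap.

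Single arms gave different courses. On 3L the share went from 23.1% at the telomere (31 of 134, 16.8 to 31.0%) to 3.53% in the fourth part (3 of 85, 1.21 to 9.87%), and it was 16.8% at the centromere end (17 of 101). On 2L it was 20.2% at the telomere (18 of 89) and 9.52% at the centromere end (8 of 84). On 2R both end parts had about the same share, with 22 wide of 109 peaks (20.2%) at the telomere and 15 of 75 at the centromere end, against 9.09% in the fourth part. On X it was 10.8% at the telomere (9 of 83) and 15.4% at the centromere end (18 of 117), and on 3R it was highest in the middle part, at 21.2% (24 of 113). Within 2L, 2R and X the intervals of the parts just named overlapped.

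**Figure D5:**
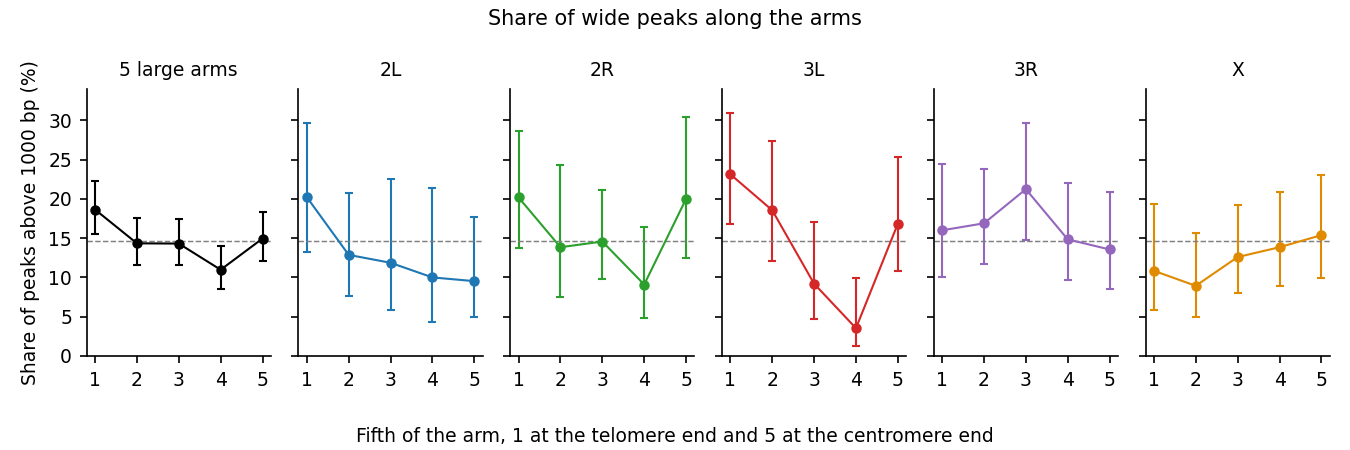
Share of peaks above 1000 bp (y axis, percent, with Wilson 95% intervals) in 5 equal parts of each large arm, from the telomere end (1) to the centromere end (5), for all 5 arms together and for each arm, with the overall 14.7% as a dashed line. On 3L the share was 23.1% at the telomere and 3.53% in the fourth part.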

How the data were processed

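Wing-disc ChIP-seq of BEAF-32 was represented by 1 deposited list with 3 columns and no header. The columns hold other values than read counts or scores: the authors' chromosome, start and end in base pairs. Per the labels' protocols, 200 discs were fixed with 1% formaldehyde for 10 min, chromatin was sonicated to 200 to 500 bp, and libraries were cut from a gel at 200 to 300 bp. Bowtie 0.12.5 is named in the submitters' processing notes. No source used here gives the peak caller, its threshold, the use of input, the pooling of libraries or the build. The names of the sequences (2LHet, Uextra) are those of Release 5, and the Release 6 gene table was not joined to the list, so genes and sequences were not used here. Positions are printed with starts counted from 1.

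Gaps are bases between edges. Counts within 10 to 500 kb around a peak use midpoints. Shares have Wilson and differences of shares Newcombe 95% intervals, computed with Python 3.11.15, pandas 2.3.3 and scipy 1.17.1, which cover counting error only. The gap and neighbour counts were tested on simulated data. Named peaks followed a fixed rule: the 10 widest, those next to the limit, runs with 3 or more wide peaks, closest wide pairs, the extreme windows and stretches, and the most isolated. The runs with most peaks and the windows with no wide peak were named after their values were seen. Members and lists were chosen with earlier results of these data known. The planned comparisons of motif, base composition and score were not run, for lack of a genome of the build and of a score.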

Additional observations from a re-analysis of the deposited data

How the results depend on the processing

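No paired analysis was possible because the list has no value per library, and for the same reason no replicate could be left out. The 6 differences of shares were recomputed under 77 alternatives, of which 72 stayed within the main 95% interval. Those for a peak within 5 kb (6.47 to 13.9 points), no peak within 20 kb (-16.8 to -5.95) and a wide nearest peak (5.94 to 12.8) kept their direction, with intervals that excluded 0, under all 13, 13 and 12 alternatives. The shares within 5 kb and beyond 20 kb rest on the same gaps, so they are not separate results. Where the merged width set the class, close peaks became wide through their closeness. The alternatives left arms out but took none alone, and on single arms several intervals included 0. With wide set above 1200 and 1500 bp, the difference in share with no peak within 20 kb moved to -13.6 and -16.8 points, and the difference in the sparsest windows to -5.87 and -4.28 points. Without 2L and 3L, the difference in a wide nearest peak moved to 5.94 points. The cause was not tested. The difference in the densest windows ranged from -1.44 (wide above 800 bp) to 8.18 points (above 1200 bp), and its direction held in 13 of 15 alternatives, with 3 intervals that excluded 0. The difference in the sparsest windows held its direction in 12 of 15, with 1 such interval. X minus the other arms ranged from -5.08 (above 800 bp, the 1 interval of 9 that excluded 0) to -0.69 points. Merging peaks within 500 bp left 2359 peaks, of which 365 held a wide peak, and 131 more passed 1000 bp only through merging. Depth is unknown, so peaks below the caller's threshold cannot be judged.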
